A study of Mus musculus with 3 samples.

Results

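The genes described here are 10 components of the circadian clock, namely the period genes Per1, Per2 and Per3, the cryptochromes Cry1 and Cry2, the transcription factor Clock, the nuclear receptors Nr1d1 and Nr1d2, and the output transcription factors Dbp and Tef. They were chosen by name, and their probes were found by matching the RefSeq transcript that each array probe is annotated with to a gene symbol. This gave 11 probes (2 for Dbp and 1 for each other gene) among 27235 probes matched to 20660 genes. The arrays hold 55681 probes in all that are not controls.

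The cells were NIH3T3, an established mouse fibroblast line, grown to confluency in medium with serum and collected after 24 h. They were left untreated (None), or given 20 μM AR7, a small molecule that binds the retinoic acid receptor RARα and activates chaperone-mediated autophagy, or 20 μM BMS614, a selective RARα antagonist. Total RNA labelled with Cy3 was hybridized to one-colour Agilent arrays, with 1 array per condition. The compounds were dissolved in DMSO, and whether the None cells received DMSO is not given in the sources used here, nor is any step that would synchronize the clocks of the cells. CA39 and CA77, further compounds of the study, were not analysed here. Because 1 array stands for each condition, no test between conditions was possible, and the number of arrays limits the precision of every value below. Since the RNA is from whole cultures, fewer cells of a type and less RNA per cell cannot be told apart.

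In mammalian cells the clock is a feedback loop of transcription. CLOCK and its partner BMAL1 (gene Arntl) bind E-box elements and activate the Per and Cry genes, whose proteins return to the nucleus and repress CLOCK and BMAL1. In a second loop, the REV-ERB receptors (Nr1d1 and Nr1d2) repress Arntl with the corepressor N-CoR1, against activation by the ROR receptors. The loops drive output factors such as DBP and TEF, which bind D-box elements. Fibroblasts, NIH3T3 among them, carry a clock of their own. Retinoic acid receptors belong to the same superfamily as the REV-ERB and ROR receptors and also recruit N-CoR1.

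Levels are given as log2 intensity after background correction and normalization of the 3 arrays to one distribution, and differences as log2 differences between arrays. As a measure of technical error, 266 probes that are printed 10 times on every array gave the standard deviation (SD) of the log2 difference between 2 arrays for spots of the same probe. This SD fell with the level, from 0.395 for the dimmest probes to 0.049 for the brightest in AR7 minus None. A difference is called here when it is larger than 2 of these SDs. The SD covers the error of spots within arrays and leaves out the variation between cultures, labelling reactions and hybridizations, so a call says that 2 arrays differ and not that the treatments do. All 12 markers fixed for fibroblasts were well above background on every array, with a median level of 14.41 without additions, 14.34 with AR7 and 14.48 with BMS614. Between AR7 and BMS614 all 12 were lower with AR7, 7 of them called (12.2% of all probes were called lower there), with a median difference of -0.10, and 5 of the 12 were called higher and 1 lower in BMS614 minus None (12.7% of all probes in each direction). Their part in the differences of the clock genes was not tested. Of the markers of other cell types, 3 of 6 epithelial, 4 of 6 leukocyte, 3 of 5 endothelial and 4 of 5 neuronal genes were above background on all 3 arrays, while Epcam, Ptprc and Cdh5 were not. The share of probes well above background was 55.4% for None, 61.2% for AR7 and 61.8% for BMS614. The 75th percentile of spot intensity before normalization was 692, 780.5 and 909 in the same order.

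All 10 clock genes were well above background on all 3 arrays, with no saturated and no outlier spot, and each probe had 1 spot per array. Compared with untreated cells, no clock gene was called with AR7, whereas Cry2, Dbp and Tef were called lower with BMS614, by 1.08- to 1.11-fold. Set against each other at the same dose and time, AR7 and BMS614 differed by a call in these 3 genes, higher with AR7, and in Cry1, lower with AR7. No clock gene reached 1.5-fold in any of the 3 comparisons. The plot of levels by array shows how small these differences are beside the range of levels.

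**Figure D1:**
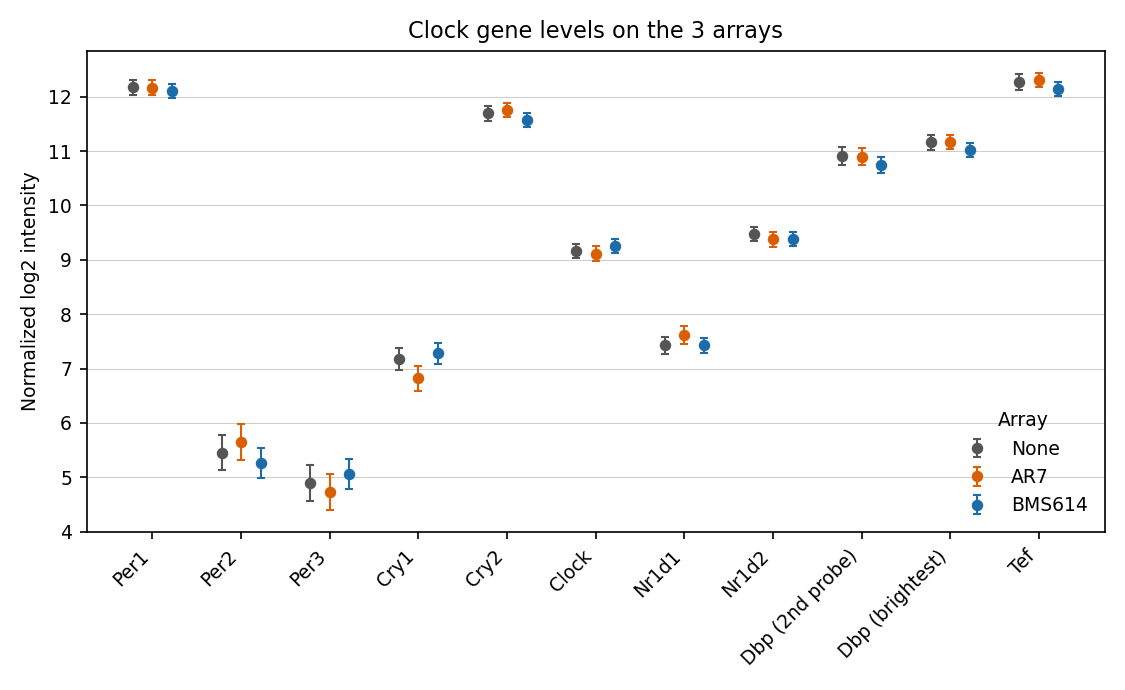
Normalized log2 intensity (vertical axis) of each of the 11 probes of the 10 clock genes on the None, AR7 and BMS614 arrays, 1 point per array. Bars are ± 1 SD of single repeated spots around the mean of their probe on that array, between 0.127 and 0.329 for these levels. Points of one probe lie close together on all 3 arrays, with the widest spacing for Cry1, where AR7 lies 0.46 below BMS614.

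The period genes encode the repressors that, with the cryptochromes, close the main loop. Per1 had a level of 12.17 without additions, 12.17 with AR7 and 12.10 with BMS614. The 3 arrays were thus almost level for Per1, with a difference from None of -0.0025 with AR7 and -0.07 with BMS614, within 2 SDs (SD 0.05 in both). With BMS614 the deposited table gave -0.12 for Per1, and the gene was called there and with the scanner software's processed signal, that is in 2 of 6 other ways of correcting and scaling the arrays. Per2 read 5.45 on the None array, 5.65 on the AR7 array and 5.26 on the BMS614 array. AR7 was highest and BMS614 lowest for this gene, which is a clock component induced by light and by hormones as well as by the clock. The distance between the AR7 and BMS614 arrays was 0.39 for Per2, or 1.31-fold, which is 1.04 times the SD of 0.38 at this low level. Per3 went the other way, with 4.90, 4.72 and 5.07 for None, AR7 and BMS614. Here AR7 was lowest and BMS614 highest, and the difference of -0.34 between them was 0.90 SD. Per2 and Per3 lie among the dimmest probes that count as above background, so that a difference had to reach 1.73-fold in AR7 minus None, 1.59-fold in BMS614 minus None and 1.69-fold in AR7 minus BMS614 to be called. Before normalization, the median pixel intensity of the Per2 spot was 149 (None), 177.5 (AR7) and 174 (BMS614), over a local background of 57 on the None array.

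The cryptochromes are the stronger repressors of CLOCK and BMAL1. Cry1, which acts late in the cycle, measured 7.17 without additions, 6.82 with AR7 and 7.28 with BMS614. The AR7 array was the low one, and None and BMS614 lay close together. Cry1 held the largest difference from None of any of the 10 genes, -0.35 with AR7 (SD 0.22), a 1.27-fold lower level that missed the threshold for a call at 1.57 SD. Its difference between AR7 and BMS614, -0.46 (SD 0.22), was called at 2.11 SD and amounted to 1.37-fold. Of all probes above background, 6.23% differed at least this much between these arrays. This call stood close to the threshold and remained in 3 of 6 other ways of correcting and scaling the arrays.

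Cry2, the second cryptochrome, read 11.69 on the None array, 11.76 with AR7 and 11.58 with BMS614. BMS614 was lowest and AR7 highest, an order opposite to that of Cry1. The difference from None was 0.06 with AR7 (1.11 SD) and -0.12 with BMS614 (SD 0.05, 2.29 SD), and only the latter was called. AR7 exceeded BMS614 by 0.18 for Cry2 (SD 0.05, 3.91 SD), which is 1.13-fold. Cry1 and Cry2 were therefore called in opposite directions between the 2 compounds. Whether that contrast between the cryptochromes is larger than the variation between cultures was not tested.

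Clock encodes the activator that pairs with BMAL1. Its level was 9.16 (None), 9.11 (AR7) and 9.25 (BMS614). The values spanned 0.14 in all, and none of the 3 differences was called, the largest being -0.14 between AR7 and BMS614 (SD 0.09). The array also measured its partner Arntl, described with the other clock factors below.

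Nr1d1 and Nr1d2 encode REV-ERBα and REV-ERBβ, the heme-binding repressors of Arntl. Nr1d1 measured 7.43 with no addition, 7.62 with AR7 and 7.43 with BMS614. The AR7 array stood above both others by 0.19, or 1.14-fold, at 1.46 SD against None and 1.62 SD against BMS614, so neither difference was called. Nr1d1 shares its end with Thra, a gene on the opposite strand, and the position of the probe relative to that overlap was not analysed here. Nr1d2 had levels of 9.48, 9.38 and 9.38 for None, AR7 and BMS614. Both compounds gave a difference of -0.10 from None (SD 0.09 with AR7 and 0.10 with BMS614), and the AR7 and BMS614 arrays differed by -0.0029. Both of these comparisons use the same None array, so that their like values are not separate evidence.

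Dbp and Tef encode transcription factors of the PAR bZIP family, which carry the rhythm of the clock to genes with D-boxes. The brighter probe of Dbp read 11.16 (None), 11.17 (AR7) and 11.01 (BMS614), and its other probe 10.91, 10.90 and 10.75. On both probes None and AR7 were nearly equal and BMS614 was the low array. BMS614 minus None was -0.15 on the brighter probe (2.84 SD) and -0.16 on the other (2.41 SD), a call on each. The AR7 minus BMS614 difference of Dbp was 0.15 on each probe, at 3.38 and 2.71 SD. These probes measure transcripts of one gene in the same RNA and are not replicates of the treatment. Before normalization the brighter Dbp spot had a median pixel intensity of 2089 (None), 2366 (AR7) and 2541 (BMS614). The BMS614 array was thus the brightest in raw intensity, as it was over all probes, and the lower level with BMS614 is relative to the distribution of that array.

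Tef gave 12.27 without additions, 12.31 with AR7 and 12.15 with BMS614. BMS614 was again the lowest of the 3. The difference from None was 0.04 with AR7 (0.70 SD) and -0.12 with BMS614 (SD 0.05, 2.33 SD). At 4.16 SD, the excess of AR7 over BMS614 was the largest of the 10 genes in units of SD (0.16 on the log2 scale, SD 0.04), though it is a 1.12-fold difference. For Cry2, Dbp and Tef the calls against BMS614 and the calls of BMS614 against None share the BMS614 array and are not separate evidence.

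**Figure D2:**
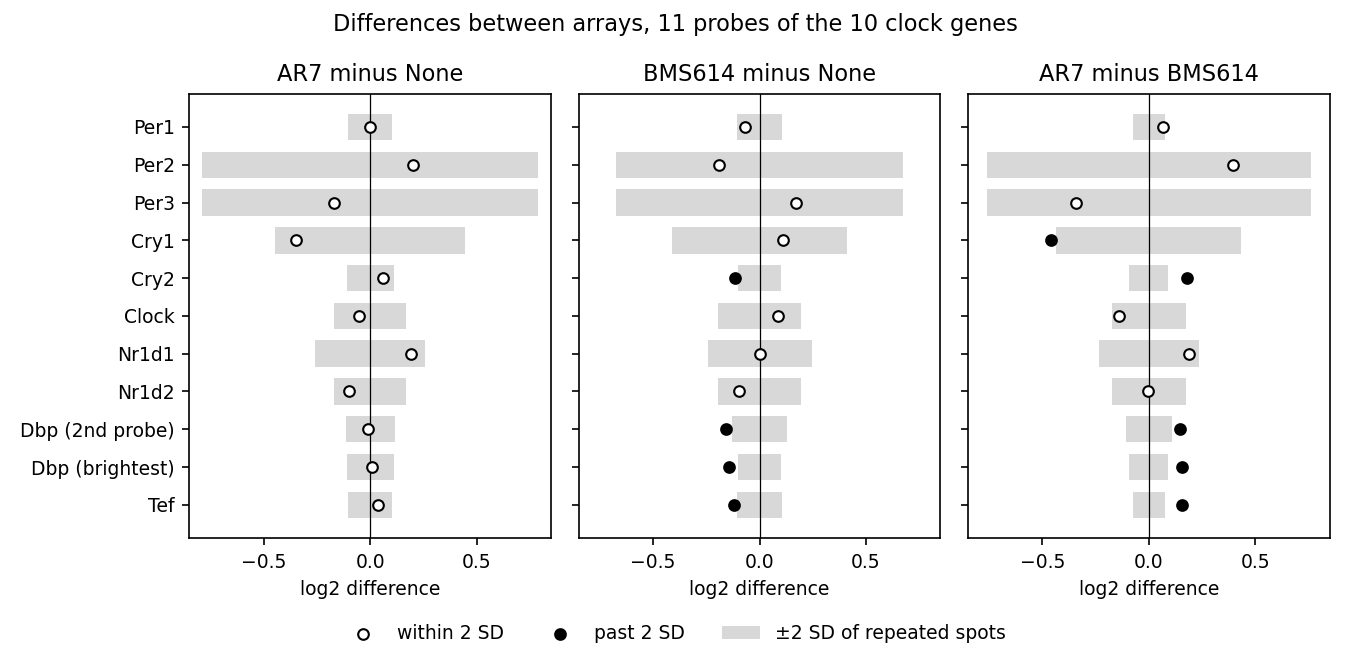
log2 difference between arrays (horizontal axis) for the 11 probes in AR7 minus None, BMS614 minus None and AR7 minus BMS614. Grey bars span ± 2 SD of repeated spots at the level of the probe, filled points lie outside and open points inside. AR7 minus None has no filled point, BMS614 minus None has Cry2, Tef and both Dbp probes on the lower side.

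Counted over the 10 genes, 0 were called between AR7 and None, where 17.4% of all 30289 probes above background on all 3 arrays were called (8.91% higher and 8.51% lower). Between BMS614 and None 3 of 10 were called, all lower, against 25.4% of all probes (12.7% higher and 12.7% lower). Between AR7 and BMS614 4 of 10 were called, 3 higher and 1 lower, against 24.8% (12.6% higher and 12.2% lower). With 10 genes each gene is worth 10 percentage points, and the counts of 3 and 4 lie near the shares over all probes, so that they are no result particular to the clock. At 1.5-fold, 0 of 10 were reached in each comparison, against 4.18% of probes for AR7 minus None, 4.87% for BMS614 minus None and 3.19% for AR7 minus BMS614. The median difference over the 10 genes was 0.0029, -0.08 and 0.11 in the order AR7 minus None, BMS614 minus None and AR7 minus BMS614, and over all probes it was -0.0052, -0.0017 and -0.0005. The median absolute difference of the clock genes was 0.08, 0.11 and 0.17, beside 0.10, 0.12 and 0.11 for all probes.

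The level of a gene decided what could be called, because the error of repeated spots is small for bright probes. Cry2, Dbp, Tef and Per1 lie in the band between 11.10 and 12.58, which holds 3525 probes. In that band 17.7% of probes were called lower in BMS614 minus None and 23.4% were called higher in AR7 minus BMS614, and 3 of these 4 genes were called in each. The band was chosen after the values were seen. Set against the spread of all probes of similar level in place of repeated spots, the difference of Tef between BMS614 and None was -1.24 SD, that of Dbp -1.28 SD and that of Cry2 -1.03 SD, and none of the 3 was past 2 SD. On that same scale Cry1 in AR7 minus BMS614, at -2.38 SD, was the 1 clock gene past the threshold. The plot of differences by level shows both yardsticks.

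**Figure D3:**
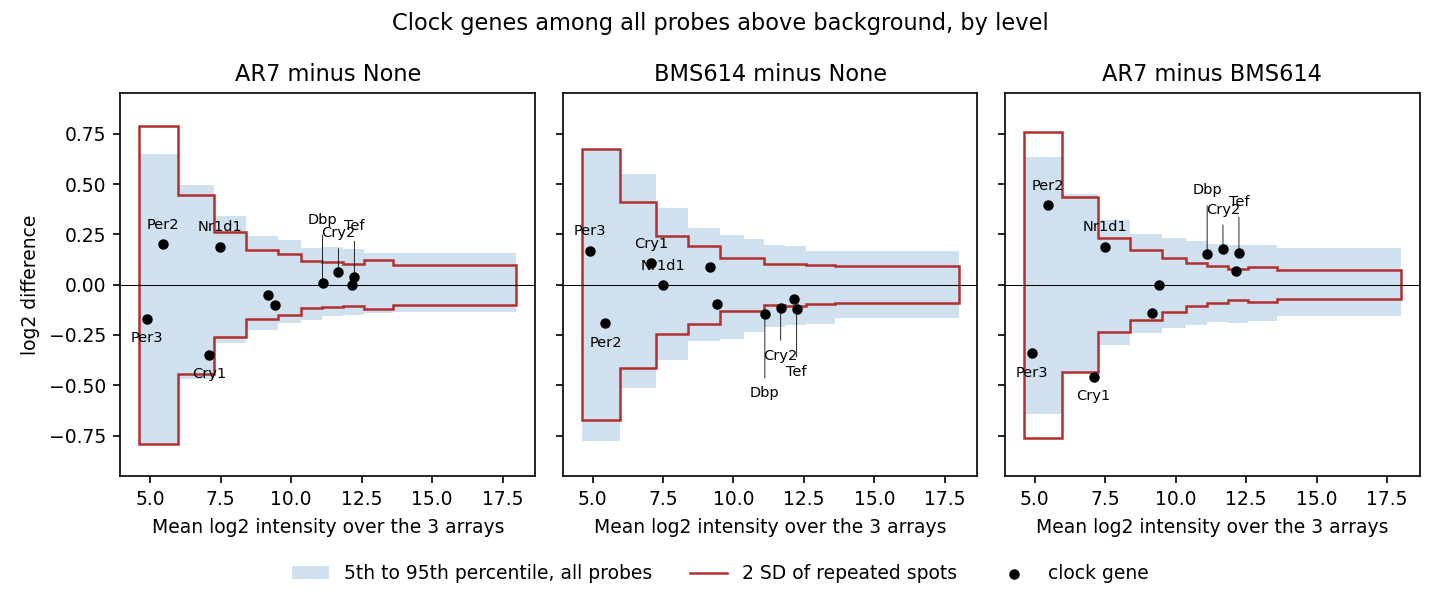
log2 difference (vertical axis) against mean log2 intensity over the 3 arrays (horizontal axis) for the 10 clock genes (points, brightest probe of each). The shaded area runs from the 5th to the 95th percentile of all 30289 probes in 10 bins of level and the red lines mark ± 2 SD of repeated spots; Cry2, Dbp and Tef lie outside the red lines with BMS614 but inside the shaded area, while Cry1 lies just outside the red line in AR7 minus BMS614.

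Promoter sequence was set beside these values for the elements through which the clock acts. The RefSeq table used (assembly GRCm38.p6) gave 13 windows for 9 of the 10 genes, Per2 being the one without an entry, each from 250 bases before to 50 bases after a transcription start. Both strands were searched for the E-box CACGTG, the D-box TTATGTAA or TTACGTAA, the core of the ROR and REV-ERB element TAGGTCA or TGGGTCA, the cAMP response element TGACGTCA and the DR5 repeat of retinoic acid receptors. The E-box was present in 4 of the 13 windows, those of 3 genes (Per1, Cry1 and Tef), and in 7.15% of all 32851 windows of the table. The D-box was present for Per3 only, in 1 of the 13 windows, beside 1.06% of all windows. No clock gene window held the ROR element core (6.45% of all windows), the cAMP response element (1.79%) or the DR5 repeat (0.00913%). These matches are letters in a window and not sites shown to be bound. The stretches around the E-boxes follow because they join genes with different values here, Tef called lower with BMS614 and Per1 and Cry1 not. Each is given on the strand of its gene, 5′ to 3′, with the element in capitals, for Per1 at chr11:69098743-69098828, Cry1 at chr10:85185069-85185154, and the 2 starts of Tef at chr15:81802506-81802591 and chr15:81811236-81811321.
Per1: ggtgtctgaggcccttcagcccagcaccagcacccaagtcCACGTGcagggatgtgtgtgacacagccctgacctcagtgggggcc
Cry1: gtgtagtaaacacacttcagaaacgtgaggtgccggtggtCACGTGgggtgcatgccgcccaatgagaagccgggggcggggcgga
Tef, upstream start: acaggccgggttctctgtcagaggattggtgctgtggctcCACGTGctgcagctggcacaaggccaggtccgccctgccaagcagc
Tef, downstream start: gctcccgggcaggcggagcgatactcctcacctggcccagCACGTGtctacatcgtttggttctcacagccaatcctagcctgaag

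The E-box began 166 bases before the start in Per1, 60 bases before it in Cry1, and 127 and 138 bases before the respective starts of Tef. The windows of Cry2 and Dbp, which were called together with Tef, held none of the elements searched. Only exact matches inside the windows were searched, so elements elsewhere in a gene or with other letters would not be seen. Per3 carried the D-box TTATGTAA at 205 and again at 158 bases before its start, in the stretch at chr4:151044776-151044910 on the minus strand, printed here because D-boxes are the sites of DBP and TEF.
Per3: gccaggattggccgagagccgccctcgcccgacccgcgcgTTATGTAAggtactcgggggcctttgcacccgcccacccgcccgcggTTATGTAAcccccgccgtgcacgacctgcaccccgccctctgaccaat

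Per3 itself read lower with AR7 and higher with BMS614 than without additions, neither past 1 SD, as given above. The E-box was thus found in genes called and not called with BMS614.

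Among 12 other transcription factors of the clock, 8 were above background on all 3 arrays, and Npas2, Arntl2 and Rora on none. Arntl, the partner of Clock, had levels of 10.45 (None), 10.28 (AR7) and 10.51 (BMS614). AR7 was the low array for Arntl, at -0.17 from None (2.88 SD) and -0.23 from BMS614 (4.24 SD), and BMS614 differed from None by 0.06 (0.93 SD). Nfil3, the repressor that competes with DBP and TEF for D-boxes, read 12.74 on the None array, 12.56 with AR7 and 12.54 with BMS614. It was called lower with both compounds, by a difference of -0.18 with AR7 (2.87 SD) and -0.20 with BMS614 (4.12 SD). Rorb, a retinoid-related orphan receptor, was called higher with both, 0.39 with AR7 (2.97 SD) and 0.30 with BMS614 (2.42 SD). Its other probe, in the dimmest range, gave 0.36 and 0.42, neither past 2 SD.

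Hlf, the remaining PAR bZIP factor, was called higher with BMS614, at 0.36 (2.95 SD), while Dbp and Tef of its family were called lower there, and AR7 gave 0.18 for Hlf (1.42 SD). Bhlhe40, a repressor that competes for E-boxes, was called higher with BMS614 at 0.13 (2.06 SD), and AR7 minus BMS614 was -0.17 (2.48 SD). Timeless differed from None by -0.02 with AR7 and 0.05 with BMS614 on its brighter probe, and by 0.11 and 0.17 on the other, of which the last was past 2 SD. Ciart, a repressor of CLOCK and BMAL1, was the 1 factor past 1.5-fold, 0.60 higher with AR7 than with BMS614, with levels of 5.19 (None), 5.23 (AR7) and 4.63 (BMS614), in the dimmest range, where this difference was 1.57 SD. Bhlhe41 was well above background with AR7 (4.68) and BMS614 (4.52) but not on the None array (3.65), on its brighter probe. No fold against None is given, because probes not above background can read higher than these levels. Its other probe was above background on no array. In all, 1 of the 8 factors was called higher and 2 lower with AR7, and 3 higher and 2 lower with BMS614, with medians of -0.02 and 0.06. Over all probes 8.91% were called higher and 8.51% lower with AR7, and 12.7% in each direction with BMS614.

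**Figure D4:**
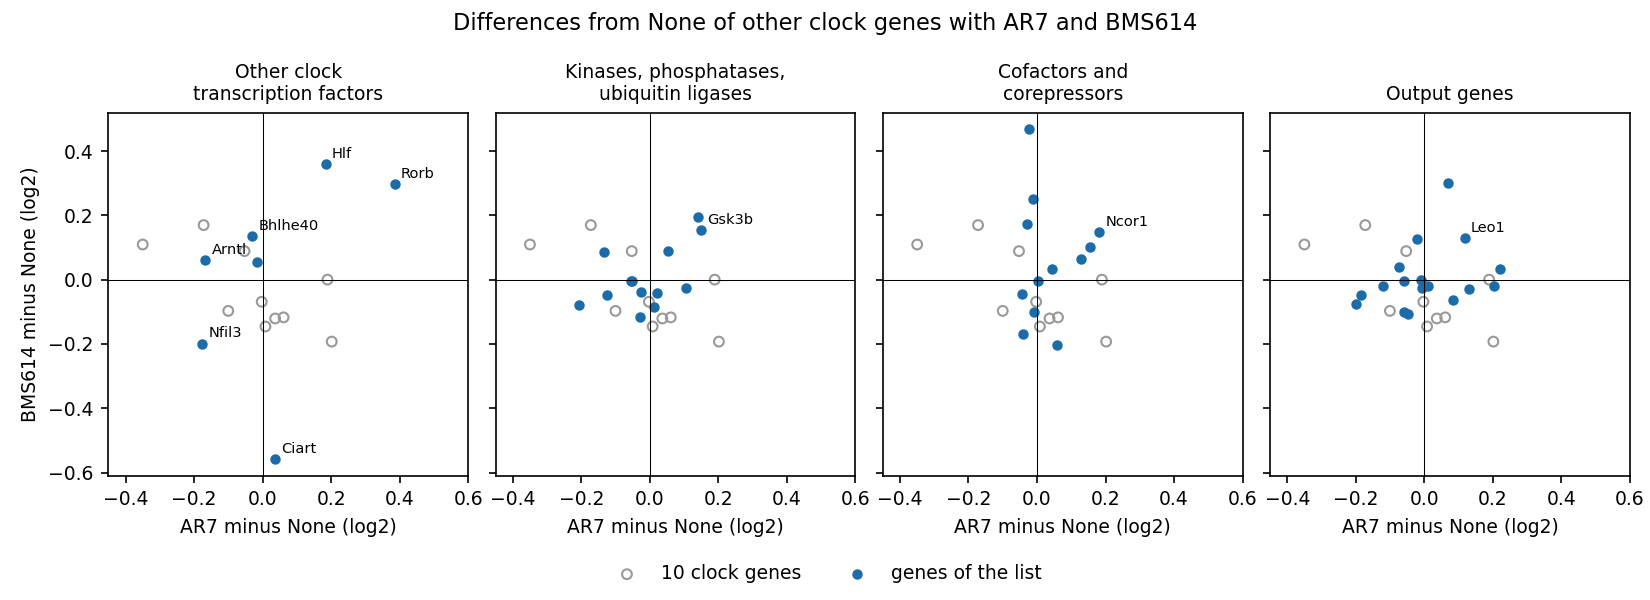
Difference from None with BMS614 (vertical axis, log2) against that with AR7 (horizontal axis, log2) for the genes reported here of 4 other clock lists (filled) and for the 10 clock genes (open, the same in each panel). Both axes subtract the same None array, so a slope along the diagonal is built into the plot; Nfil3 lies low on both axes, Rorb high on both, and Ciart low with BMS614 alone.

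Of 14 genes listed as clock kinases, phosphatases and ubiquitin ligases, 13 were above background on all 3 arrays. With AR7, 1 was called higher and 2 lower (17.4% of all probes in either direction), and with BMS614 1 higher and 1 lower (25.4%). Gsk3b, a kinase of several clock proteins, was called higher with both compounds on its brightest probe, at 0.15 in each, whereas its other probes gave -0.11 and -0.30 with AR7 and -0.12 and 0.05 with BMS614. The probes of Gsk3b therefore disagreed in direction.

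All 13 of the cofactors and corepressors with a probe were above background on every array, and 3 were called higher (8.91% of all probes) and 0 lower (8.51%) with AR7, and 5 higher and 3 lower with BMS614 (12.7% each). Ncor1, the corepressor of the REV-ERBs and of RARα, read 9.82 without additions, 10.01 with AR7 and 9.97 with BMS614 on its brightest probe. The difference was called for both compounds, 0.18 with AR7 (2.40 SD) and 0.15 with BMS614 (2.24 SD), while its other probes gave -0.02 and 0.04 with AR7 and 0.09 and 0.19 with BMS614, none past 2 SD.

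Among genes driven by the clock or by its output factors, 17 of 19 were above background on all arrays. With AR7 4 were called higher and 3 lower (17.4% of all probes in either direction), and with BMS614 2 higher and 1 lower (25.4%), with medians of -0.0086 and -0.02. Leo1, a subunit of the PAF1 complex listed here as an output gene, was the 1 of them called in the same direction with both compounds, 0.12 with AR7 (2.26 SD) and 0.13 with BMS614 (2.47 SD).

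Cry2, Dbp and Tef stayed past 2 SD under all 6 other ways of correcting and scaling, lower in BMS614 minus None and higher in AR7 minus BMS614. For spike-in scaling this holds only relative to the median of all probes, as given below. Of 30 differences (10 genes in 3 comparisons), 21 kept their sign under every alternative. Per1, Clock and Nr1d2 in AR7 minus None changed sign only under spike-in scaling, where a shift common to all probes was left in. Nr1d1 in BMS614 minus None was 0.0 as reported and had no sign to keep. Per3 with AR7 ranged from -0.18 to 0.12, and Per2 with BMS614 from -0.20 to 0.04, so that neither has a settled direction against None. Cry1 kept its direction throughout, from -0.35 to -0.18 in AR7 minus None and from -0.47 to -0.27 in AR7 minus BMS614. Nr1d1 with AR7 was above None in every setting, from 0.12 to 0.31. When the arrays were scaled on the spike-in controls, the median of all probes moved to 0.34 in BMS614 minus None and to -0.25 in AR7 minus BMS614, and values in that setting are relative to these medians, while the shift of 0.096 in AR7 minus None was left in. The plot of alternatives gives the full range for each gene.

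**Figure D5:**
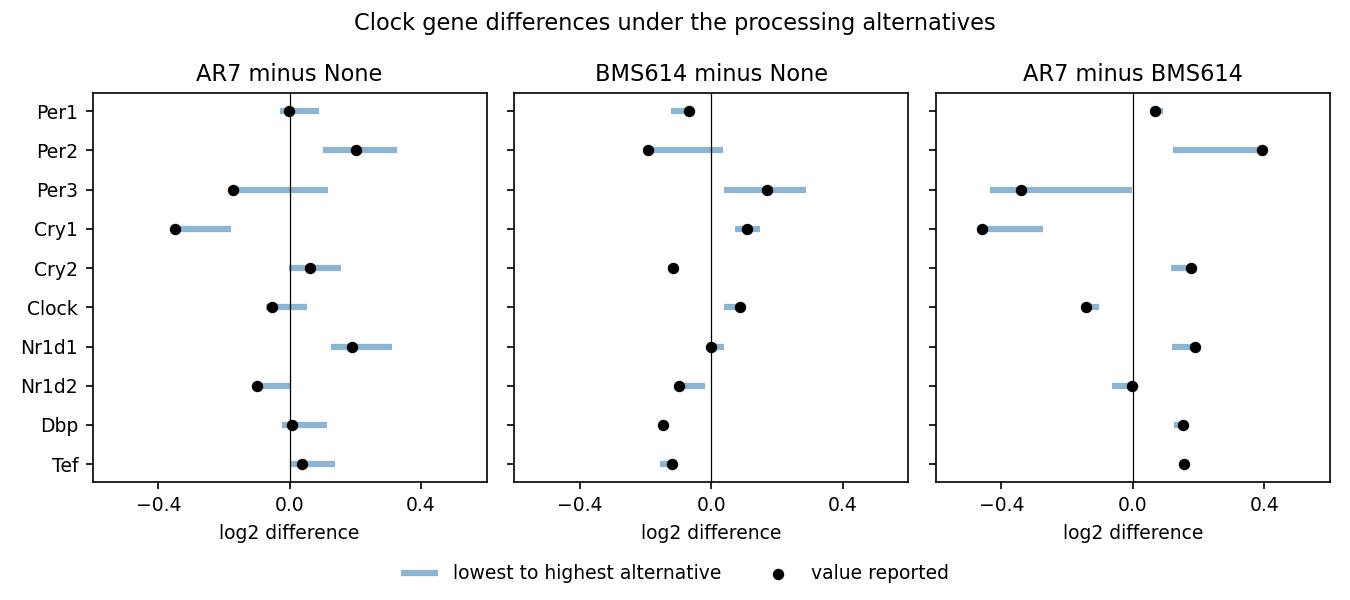
log2 difference between arrays (horizontal axis) for each of the 10 clock genes as reported (point) and the range over the 7 processing alternatives (bar), in the 3 comparisons. The bars of Cry2, Dbp and Tef stay on one side of 0 in BMS614 minus None and AR7 minus BMS614, and those of Per1, Per3, Cry2, Clock, Nr1d2 and Dbp cross 0 in AR7 minus None. In the comparisons with BMS614, spike-in values are relative to the median of all probes.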

How the data were processed

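Gene expression was measured on one-colour Agilent arrays of 3 samples, grouped by the treatment in their labels. The deposited files hold an intensity for every spot as the scanner software gave it, not normalized, and a table of processed intensity values by the authors. The labels name RMA and oligo. Values here follow that method without the oligo package. The median pixel intensity was background corrected with the RMA convolution model, quantile normalized over the 3 arrays (R 4.3.3, limma 3.58.1) and put on the log2 scale, in place of the mean pixel intensity. Controls and outlier spots were left out and spots of a probe averaged. For a gene with several probes, the one of highest mean level stands for it. RefSeq accessions were matched to the gene table of GRCm38.p6, and the promoter orientation was checked. Other steps used Python 3.11.15, numpy 2.4.6, pandas 2.3.3 and matplotlib 3.10.9.

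Calls use 2 SD of repeated spots in 10 bins of level, among probes that no array reads as near background. The calling rule was tested on simulated data drawn with the same SD of repeated spots. These data hold no variation between cultures, labelling reactions or hybridizations, so the simulation says nothing about calls arising from it. No p-value is given, since each condition has 1 array. The genes and lists were chosen with earlier results of these data known. The text names the 10 clock genes with every probe, all other clock transcription factors, genes of the remaining lists that were called in the same direction with both compounds or past 1.5-fold, and the 5 genes nearest in pattern to the clock gene furthest from None, among probes with a mean log2 level of at least 8. Alternatives were other background corrections and scalings (75th percentile, spike-in controls, normexp with offset 50), the deposited table with values below 16 set to 16, outlier spots kept, the mean over probes, and other thresholds and errors. A few genes covered by this rule are not reported here, and only counts and medians of their lists include them. The array files hold no probe sequence column, so probe sequences are not shown.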

Additional observations from a re-analysis of the deposited data

How the results depend on the processing

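No paired analysis was possible because the labels give every condition a single array. Alternatives were run for the 10 clock genes. No called difference among these changed its direction when spike-in values in the comparisons with BMS614 were taken relative to the median of all probes. With the spike-in shifts left in, the called differences of Cry2, Dbp and Tef would change direction. The count of clock genes past the threshold in AR7 minus None, 0 as reported, was 4 with spike-in scaling (Cry2, Nr1d1, Dbp and Tef, all higher) and 4 at 1 SD, and the median over the 10 genes moved from 0.0029 to 0.1017 with spike-in scaling. In that setting the median of all probes was 0.0955, a shift that was left in and that these calls include. With 75th percentile scaling after the same background correction the count was 0. In BMS614 minus None the count was 3 as reported, 4 (Per1 added) with the processed signal and with the deposited table, 5 at 1 SD and 0 at 3 SD. In AR7 minus BMS614 it was 4 as reported, 8 at 1 SD, 3 at 3 SD and 3 with outlier spots kept (without Cry1). With the processed signal and with the deposited table it was 4, with Per1 in place of Cry1. At 1.5-fold and at 2-fold both counts with BMS614 were 0. With 2 error estimates chosen after seeing the data, that of the scanner software and the SD over all probes of similar level, the count was 0 and 0 in BMS614 minus None, and 0 and 1 (Cry1) in AR7 minus BMS614. The scanner software's error for a difference was about 0.204 for bright probes and 0.387 for Per3 in AR7 minus None. Among the values of single genes, 201 moved by less than the SD of repeated spots and 9 by more, 6 of them with spike-in scaling in AR7 minus None. The 201 include the mean over probes, which could move Dbp alone, since every other clock gene has 1 probe. No result here has a replicate check, and dim probes (Per2, Per3) limit what could be seen.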

Other observations

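The genes whose pair of differences from None lay nearest to that of Cry1 (-0.35 with AR7 and 0.11 with BMS614) were Usp40, Abhd10, Pxmp4, Prmt1 and Gm5176, by Euclidean distance over 12357 probes with a mean log2 level of at least 8. Usp40 gave -0.35 and 0.11, at a distance of 0.0064, and Gm5176, the fifth, gave -0.34 and 0.07 at 0.0378. In all, 27 probes lay within 0.1 of Cry1. With 3 arrays the likeness rests on 2 values per gene that share the None array, and it is given as a description.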
